A study of Mus musculus with 16 samples.

Results

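Solute carriers are the membrane proteins that move amino acids, sugars, ions, metals, vitamins, organic anions and other small molecules into and out of cells and organelles. The genes described here are those whose symbol begins with Slc and a digit or with Slco, apart from the mitochondrial Slc25a family and 6 other genes (Slc2a2, Slc2a4, Slc10a1, Slc27a5, Slc37a4 and Slc40a1). By this rule 234 of the 12393 genes with a probe set that names 1 gene were members, and 33 Slc25a genes and those 6 genes were left out. The members were measured by 366 probe sets, and 86 members had several, of which the one with the highest mean signal was used. Members were put in classes by the substrate that their family is known to carry, and 3 of them (Slc9a3r1, Slc9a3r2 and Slc4a1ap) are proteins named after a carrier that they bind or regulate, not carriers.

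Liver and quadriceps, a muscle of the thigh, were taken from female mice aged 4 to 5 months after a fast of 18 h. Wild-type mice and mice that lack Klf15 were compared, with 4 arrays in each of the 4 groups, so that all animals were fasted. The labels used here give no strain, do not say how the Klf15-null allele was made, and do not say that the samples came from separate animals, so p-values describe only how far these samples spread, which may be technical. The comparison asks what loss of Klf15 changes in the transcripts of either tissue. Klf15 is a Kruppel-like zinc finger transcription factor, a family that binds GC-rich and CACCC sequences, and in fasting it is known for its part in amino acid breakdown and gluconeogenesis.

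Amino acid carriers bring substrate to these pathways. In liver, sodium-coupled carriers of the Slc38 family take up glutamine, alanine and other neutral amino acids, Slc7 carriers exchange cationic and large neutral amino acids, some of them paired with the heavy chains Slc3a1 or Slc3a2, and Slc66a1 exports cationic amino acids from the lysosome. The Slco, Slc22, Slc17 and Slc47 families move bile acids, hormones, urate, drugs and other organic anions or cations across the hepatocyte membrane. Muscle uses Slc6a8 for creatine, Slc6a6 for taurine, and the lactate carriers Slc16a1 and Slc16a3.

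Values are probe set signals in the linear intensity units of the array software, with no count or detection call behind them. Signals of different probe sets cannot be compared with each other, so each comparison is of 1 probe set between groups. The number of arrays limits the precision. Array medians lay between 41.6 and 48.9 in liver. In quadriceps they spread from 15.6 to 59.2, and signals were multiplied to a common median, by factors from 0.678 to 2.57. Knockout quadriceps 8 stood apart: its median was 15.6 against at least 32.5 on the others, more of its signal (21.3%) fell on the top 100 probe sets than on any other quadriceps array, and it was scanned 3 days later. The 3′ to 5′ signal ratio of the Gapdh control, which reflects RNA quality, was 1.09 on this array. It was 0.785 to 0.789 on the remaining knockout arrays and 0.855 to 0.937 in wild-type quadriceps, so that without knockout 8 this ratio separates the genotypes. Fluidics station 2 processed every wild-type array and station 1 every knockout array, in both tissues, so an effect of the station cannot be told apart from one of the genotype. The tissues were run on different days, so tissue and run day cannot be told apart either.

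The Klf15 signal was read first as a check of the labels. In liver it was 1016, 1221, 1280 and 855 in the wild-type arrays and 200.4, 155.0, 149 and 158 in the knockout arrays, and in quadriceps 703, 514.5, 693 and 715 against 15.6, 78.7, 89.3 and 45.6. Every knockout array lay below every wild-type array, with a log2 difference of -2.60 ± 0.14 (SE) in liver and -3.33 ± 0.29 in quadriceps (limma, adjusted p = 1.08e-07 and 3e-06). Where this probe set lies relative to the deleted part was not determined. Of the hepatocyte markers, 7 of 7 were measured in liver and 0 of 7 passed the threshold there, and of the myofibre markers 8 of 8 were measured in quadriceps and 0 of 8 passed. The summed hepatocyte signal lay between 56809 and 60954 in wild-type and between 56615 and 61564 in knockout liver. In liver all 9 macrophage markers had a positive difference and 1, the scavenger receptor Marco, passed, at a log2 difference of 1.58 ± 0.42 (adjusted p = 0.0332). Of the 5 endothelial markers tested in liver, 3 had a positive and 2 a negative difference, and 1, Kdr (0.49), was called, higher. Fabp2 (0.87), a gene of gut epithelium that liver also holds at a signal of 1701, was called higher as well. The summed macrophage signal was 3733 to 5524 in wild-type and 4368 to 7264 in knockout liver. The part of other cell types in the liver results was not tested. Bulk tissue cannot tell fewer cells of a type from less RNA per cell.

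Of the 234 members, 135 passed the filter on low signals in liver and 116 in quadriceps, 99 of them in both, and 82 passed in neither. A gene passed where its mean signal reached the 40th percentile of all probe sets of the tissue, which was 25.1 in liver and 24.1 in quadriceps. Differences below are knockout minus wild type of log2(signal + 16), a scale that understates the change of dim genes, and a member was called where its adjusted p over all genes tested was under 0.05.

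In liver 32 of the 135 members tested were called, 12 higher and 20 lower in knockout. Over all 7988 genes tested 10.1% were called, 4.87% higher and 5.25% lower, against 23.7% of the members. The median difference was -0.01 over the members and 0.03 over all genes. The classes differed in what they held: 12 of the 20 organic anion, organic cation and bile acid carriers tested were called, 9 of them lower, while 1 of 21 zinc, copper, iron and manganese carriers was called. The 2 called in quadriceps, of 116 tested, were lower and were not among those called in liver, and there 1.03% of all genes were called. When all 16 arrays of both tissues entered 1 fit, 13 of the 135 members were called in liver, 3 higher and 10 lower, all of them among the 32.

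Among the amino acid carriers in liver, the glutamine carrier Slc38a3 was far lower without Klf15, and 3 others changed less. Of the 36 on the array, 15 were tested in liver, 2 were called lower, 2 higher and 11 did not pass, with a median difference of -0.14. Slc38a3 (chromosome 9), a sodium-coupled and proton-coupled carrier of glutamine, asparagine and histidine, had signals of 2810, 3373, 3180 and 3369 in wild-type liver and 724, 869, 981 and 1021 in knockout liver. The highest knockout array was far below the lowest wild-type array. The means were 3183 ± 265 (SD, n = 4) and 899 ± 133, a log2 difference of -1.81 ± 0.11 (SE, adjusted p = 3.01e-07).

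Slc38a2 (chromosome 15), a carrier of small neutral amino acids such as alanine, fell less. Its signals were 1387, 1206, 1046 and 968 in wild-type and 856, 791, 475 and 721 in knockout liver. The groups did not overlap, though the highest knockout and the lowest wild-type array were close, and the log2 difference was -0.70 ± 0.17 (adjusted p = 0.0178). Without wild-type liver 1 its adjusted p was 0.0545, and without wild-type liver 2 it was 0.0507. Slc38a4 (chromosome 15), the third member of this family with a high signal, lay between 3700 and 4156 in wild-type and between 3531 and 4061 in knockout liver. The groups overlapped, and the difference of -0.05 had a 95% interval from -0.20 to 0.10, so a change of the size seen in Slc38a3 lies far outside it. Slc38a10 had a difference of 0.13 (adjusted p = 0.393) and Slc38a1, at a low signal, one of -0.05 (adjusted p = 0.909).

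The carriers Slc7a2 and Slc66a1 rose in liver. Slc7a2 (chromosome 8), a plasma membrane carrier of arginine, lysine and ornithine, had 344, 358, 325 and 315 in wild-type and 510, 507, 580 and 481 in knockout liver. All knockout arrays lay above all wild-type arrays, with a log2 difference of 0.61 ± 0.10 (adjusted p = 0.00139), and its other probe sets showed 0.72 and 0.37. Slc66a1 (chromosome 4), the lysosomal exporter of arginine and lysine, had 101, 79.8, 83.0 and 101 in wild-type and 189, 130.5, 208 and 144 in knockout liver. The groups were again apart, with a log2 difference of 0.76 ± 0.15 (adjusted p = 0.00572). In the fit of all 16 arrays Slc38a2, Slc7a2 and Slc66a1 did not pass, while Slc38a3 did.

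**Figure D1:**
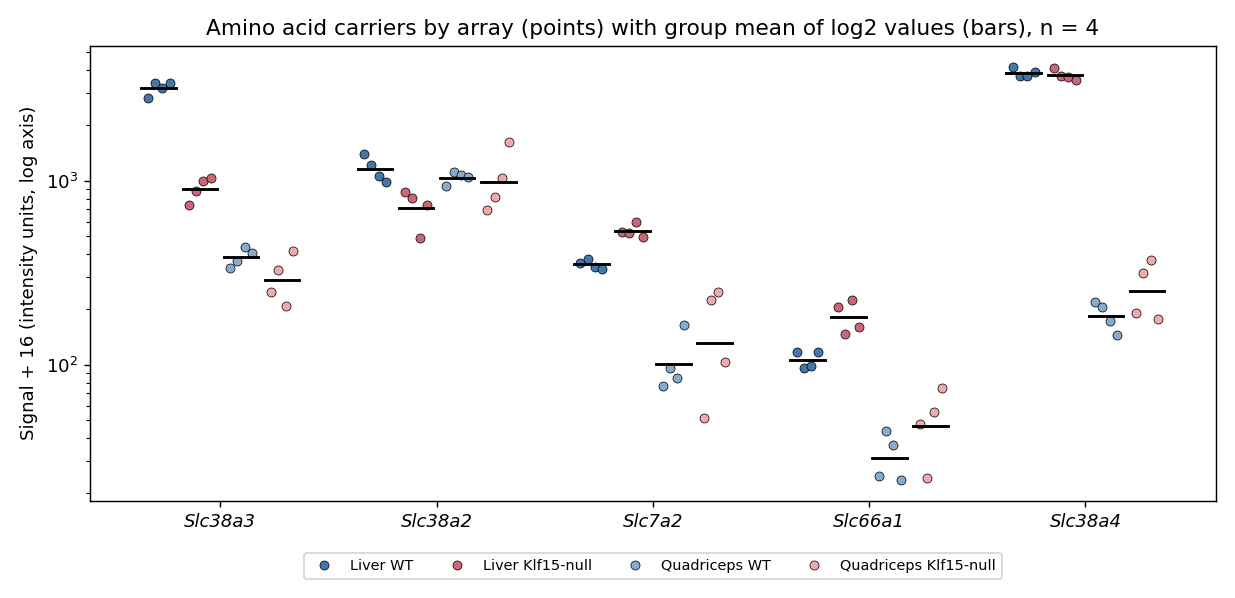
Signals + 16 (log axis) of 5 amino acid carriers on each array, with 4 arrays a group. Points are arrays and bars the group means of the log2 values. Slc38a3 is lower in knockout than in wild-type liver on every array, Slc38a2 falls less, Slc7a2 and Slc66a1 rise, and Slc38a4 overlaps.

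The other amino acid carriers tested in liver did not pass. The heavy chain Slc3a2 (chromosome 19), which brings several Slc7 carriers to the membrane, had means of 363 ± 56.8 and 330 ± 65.1 and a difference of -0.14 (adjusted p = 0.63). The other heavy chain, Slc3a1 (chromosome 17), ranged from 199 to 497 in wild-type and from 155 to 334 in knockout liver, with a difference of -0.35 (adjusted p = 0.491). Both groups varied so widely that its 95% interval ran from -0.93 to 0.24. The glutamate carrier Slc1a2, with means of 164 and 133, and the glycine carrier Slc6a9, with 206 and 183, had differences of -0.23 and -0.15. Slc6a17, Slc7a4, Slc7a7 and Slc7a8 had wild-type means between 32.5 and 48.2 and differences from -0.34 to 0.10. For Slc6a17, at -0.34, the knockout mean of 22.0 was below the filter of 25.1. Of the 36 amino acid carriers, 16 did not reach the filter in either tissue, among them Slc7a1, Slc7a5 and Slc7a11, so nothing can be said of their change.

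Genes that sense amino acid supply or partner these carriers were read beside them. Over all genes tested in liver 10.1% were called, 4.87% higher. Of 24 amino acid sensing genes on the array, 21 were tested in liver and 1 (4.76%) was called, higher. This was Asns, the asparagine synthetase, with 21.9, 11.1, 21.4 and 24.8 in wild-type and 51.6, 95.8, 173 and 142.5 in knockout liver. All knockout arrays were above all wild-type arrays, and the log2 difference was 1.79 ± 0.27 (adjusted p = 0.00105). The wild-type mean of 19.8 was below the filter, so Asns was tested only through its knockout signals and its direction was bound to be higher. Of 11 carrier partners on the array, 8 were tested in liver and 3 (37.5%) were called, all higher. Atp1b1, a subunit of the sodium pump that maintains the gradient used by sodium-coupled carriers, had means of 351 ± 48.9 and 811 ± 45.1 and a difference of 1.18. Pdzk1, a scaffold protein of apical carriers, had a difference of 0.44, and Bsg, the partner of the Slc16 lactate carriers, one of 0.28. In quadriceps none of the 23 sensing genes and none of the 9 partners tested passed, when 1.03% of all genes were called.

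The organic anion, organic cation and bile acid carriers held 9 of the 20 members called lower in liver. Of the 37 on the array 20 were tested and 3 were called higher, with a median of -0.30 against 0.03 over all genes. The member with the largest difference was Slc22a26, one of a run of neighbouring Slc22a genes on chromosome 19 whose products belong to the organic anion branch of the family. Its signals were 547, 642, 318 and 527 in wild-type and 44.9, 73.0, 64.1 and 127 in knockout liver. The highest knockout array had less signal than the lowest wild-type array, and the log2 difference was -2.52 ± 0.25 (adjusted p = 3.43e-05). A further probe set of Slc22a26 also gave -2.52.

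Its neighbours Slc22a27 and Slc22a29 also fell. Slc22a29 had 250, 269.5, 131 and 93.0 in wild-type and 46.9, 39.5, 41.1 and 32.2 in knockout liver, a difference of -1.75 ± 0.26 (adjusted p = 0.000949). Slc22a27 had 201, 264, 90.1 and 78.7 in wild-type and 50.5, 38.2, 47.0 and 55.2 in knockout liver, a difference of -1.31 ± 0.29 (adjusted p = 0.0124). In both genes wild-type liver 1 and 2 were well above wild-type liver 3 and 4, and even the latter were above every knockout array. Slc22a30, at the other end of the run, had 670.4, 613, 636 and 402 in wild-type and 549, 585, 584 and 528 in knockout liver. Its groups overlapped, with a difference of -0.02 and a 95% interval from -0.33 to 0.28. In the order of the RefSeq annotation the run is Slc22a26, Slc22a27, Slc22a28, Slc22a29 and Slc22a30, with no other protein-coding gene between them, and Slc22a28 is not analysed here. These genes are similar in sequence, and the probe sets of Slc22a27 and Slc22a29 are of the kind (_x_at) whose probes can match related transcripts, so their values may not be independent. A probe set that the annotation pairs with both Slc22a29 and Slc22a30 had means of 148 ± 69.1 in wild-type and 30.5 ± 6.74 in knockout liver, and was assigned to neither.

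The promoters of these 4 neighbours and of Slc22a18 are shown because 3 of the neighbours fell while Slc22a30 did not, and Slc22a18 because it fell too but lies on another chromosome. Each is 250 bases before to 50 after the annotated start on the coding strand, from RefSeq (GRCm38.p6). They lie at chr19:7802618-7802917 for Slc22a26, chr19:7965978-7966277 for Slc22a27, chr19:8218851-8219150 for Slc22a29 and chr19:8405056-8405355 for Slc22a30, all on the minus strand, and at chr7:143473539-143473838 on the plus strand for Slc22a18. Capitals mark CACCC, or GGGTG where it lies on the other strand.
Slc22a26: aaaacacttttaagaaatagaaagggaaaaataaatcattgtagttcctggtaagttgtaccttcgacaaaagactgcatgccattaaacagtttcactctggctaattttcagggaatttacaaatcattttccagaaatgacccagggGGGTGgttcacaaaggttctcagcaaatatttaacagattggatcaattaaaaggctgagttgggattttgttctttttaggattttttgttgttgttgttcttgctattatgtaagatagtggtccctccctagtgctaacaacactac
Slc22a27: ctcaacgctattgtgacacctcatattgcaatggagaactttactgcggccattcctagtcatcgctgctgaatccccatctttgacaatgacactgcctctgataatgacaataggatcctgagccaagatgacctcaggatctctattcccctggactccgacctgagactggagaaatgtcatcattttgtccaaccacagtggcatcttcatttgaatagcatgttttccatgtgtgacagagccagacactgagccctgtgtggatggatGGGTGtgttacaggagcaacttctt
Slc22a29: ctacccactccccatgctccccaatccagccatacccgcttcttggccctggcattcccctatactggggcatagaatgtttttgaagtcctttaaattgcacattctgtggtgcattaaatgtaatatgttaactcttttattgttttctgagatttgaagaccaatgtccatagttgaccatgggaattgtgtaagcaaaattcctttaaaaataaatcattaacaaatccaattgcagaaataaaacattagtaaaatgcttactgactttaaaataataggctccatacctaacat
Slc22a30: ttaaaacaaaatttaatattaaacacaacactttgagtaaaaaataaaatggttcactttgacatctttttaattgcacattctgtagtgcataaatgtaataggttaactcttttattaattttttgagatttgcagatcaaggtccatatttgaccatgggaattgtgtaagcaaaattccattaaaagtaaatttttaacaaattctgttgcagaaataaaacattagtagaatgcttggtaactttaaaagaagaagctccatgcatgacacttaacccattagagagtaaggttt
Slc22a18: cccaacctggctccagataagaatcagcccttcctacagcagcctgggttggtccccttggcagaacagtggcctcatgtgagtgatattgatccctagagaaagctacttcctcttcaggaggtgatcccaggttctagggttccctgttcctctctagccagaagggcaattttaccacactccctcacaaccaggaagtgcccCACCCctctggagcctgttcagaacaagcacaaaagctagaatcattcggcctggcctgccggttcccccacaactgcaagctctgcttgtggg

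CACCC or its reverse complement occurred once in the windows of Slc22a26, Slc22a27 and Slc22a18, and not in those of Slc22a29 and Slc22a30. GGGCGG, searched on both strands, was in none of the 5 windows. CACCC was in 57.5% of all promoter windows and GGGCGG in 35.7%, so a match is common. Counted by gene, with a match in any of its windows, the shares were 59.8% and 38.2%. The shares of members below are also counted by gene. Among the 20 members called lower in liver 16 had a window and 12 of these held CACCC, against 76.6% of the 107 tested members with a window. GGGCGG was in 7 of those 16 (43.8%), against 68.2% of the tested members and 77.8% of the 9 called higher that had a window. These shares are descriptions, without a test. The windows of Slc22a29 and Slc22a30 shared 79.3% of their aligned bases, and the other pairs of windows 54.5% to 62.8%. The most similar pair was thus one gene that fell and one that did not pass.

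**Figure D2:**
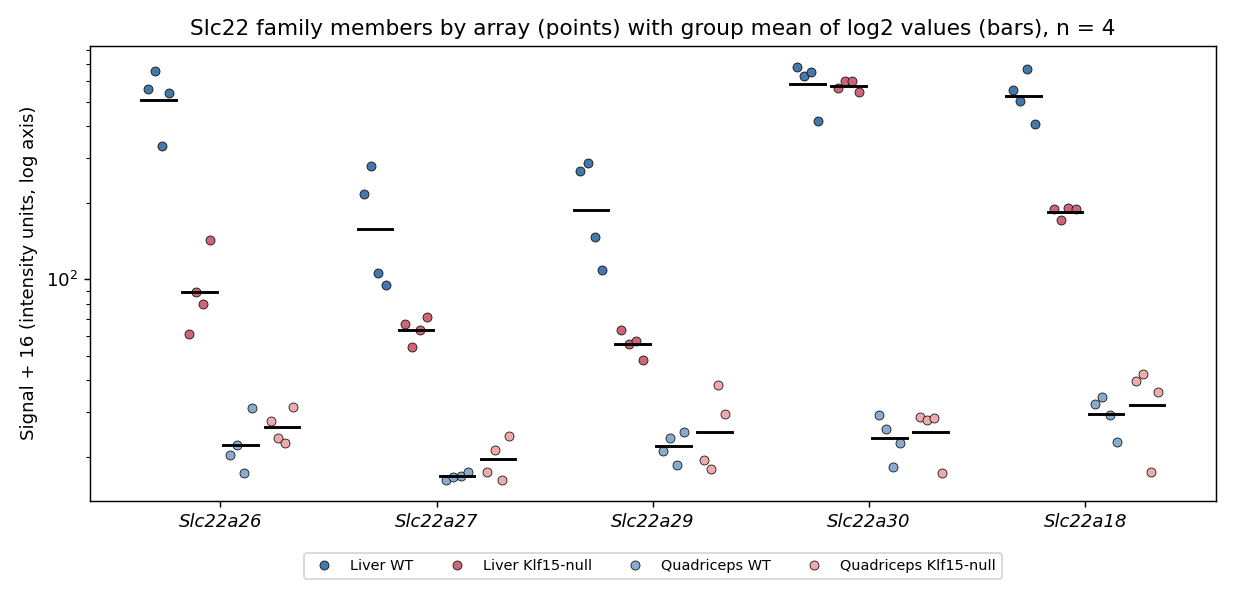
Signals + 16 (log axis) of 5 Slc22a genes on each array, with 4 arrays a group. Points are arrays and bars the group means of the log2 values. Slc22a26, Slc22a27, Slc22a29 and Slc22a18 are lower on every knockout than on every wild-type liver array, Slc22a30 overlaps, and all 5 are dim in quadriceps.

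Slc22a18 (chromosome 7), a carrier related to the organic cation carriers, had 539, 487, 653 and 392 in wild-type and 173, 155, 174 and 173 in knockout liver. The knockout arrays lay close together and far below wild type, with a difference of -1.51 ± 0.14 (adjusted p = 1.79e-05) and one of -1.36 on its other probe set. Slc17a1, Slc17a2 and Slc17a3, carriers of phosphate, urate and other organic anions, lie together on chromosome 13. Slc17a1 fell from 127 ± 14.4 to 51.4 ± 13.7 (-1.10 ± 0.16) and Slc17a2 from 1123 ± 114 to 852 ± 47.1 (-0.39 ± 0.09), while Slc17a3 rose from 626 ± 87.9 to 885 ± 69.8 (0.49 ± 0.11). The adjusted p-values were 0.000892, 0.0187 and 0.0111, and that of Slc17a2 was between 0.0512 and 0.0578 without wild-type liver 1 or 3 or knockout liver 8.

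The uptake carriers of bile acids, hormones and drugs on chromosome 6 also split. Slco1b2 had 4975, 4034, 4860 and 4392 in wild-type and 3351, 3473, 3077 and 3240 in knockout liver, a difference of -0.47 ± 0.08 (adjusted p = 0.00182). Slco1a4 had 945, 828, 595 and 380.0 in wild-type and 1237, 1394, 1706 and 996 in knockout liver, a difference of 0.99 ± 0.24 (adjusted p = 0.0186). With its 5 probe sets averaged Slco1b2 had a difference of -0.23 and did not pass (adjusted p = 0.132). On the probe sets used both separated the genotypes on every array, in opposite directions, and Slco1a4 spread widely within the wild type. Without knockout liver 7 the adjusted p of Slco1a4 was 0.0538. Slco2a1, a prostaglandin carrier, had 312 ± 31.8 and 431 ± 60.3 (0.44, adjusted p = 0.038), with overlapping groups. It passed in 8 of 19 alternative settings, and was lost without wild-type liver 2, 3 or 4 or knockout liver 5, 6 or 7, with adjusted p-values up to 0.103. Slc47a1, which exports organic cations, fell from 1392 ± 155 to 993 ± 90.0 (-0.48, adjusted p = 0.00845), and Slc22a23, a carrier without a settled substrate, from 506 ± 24.1 to 341 ± 38.3 (-0.55, adjusted p = 0.00384).

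**Figure D3:**
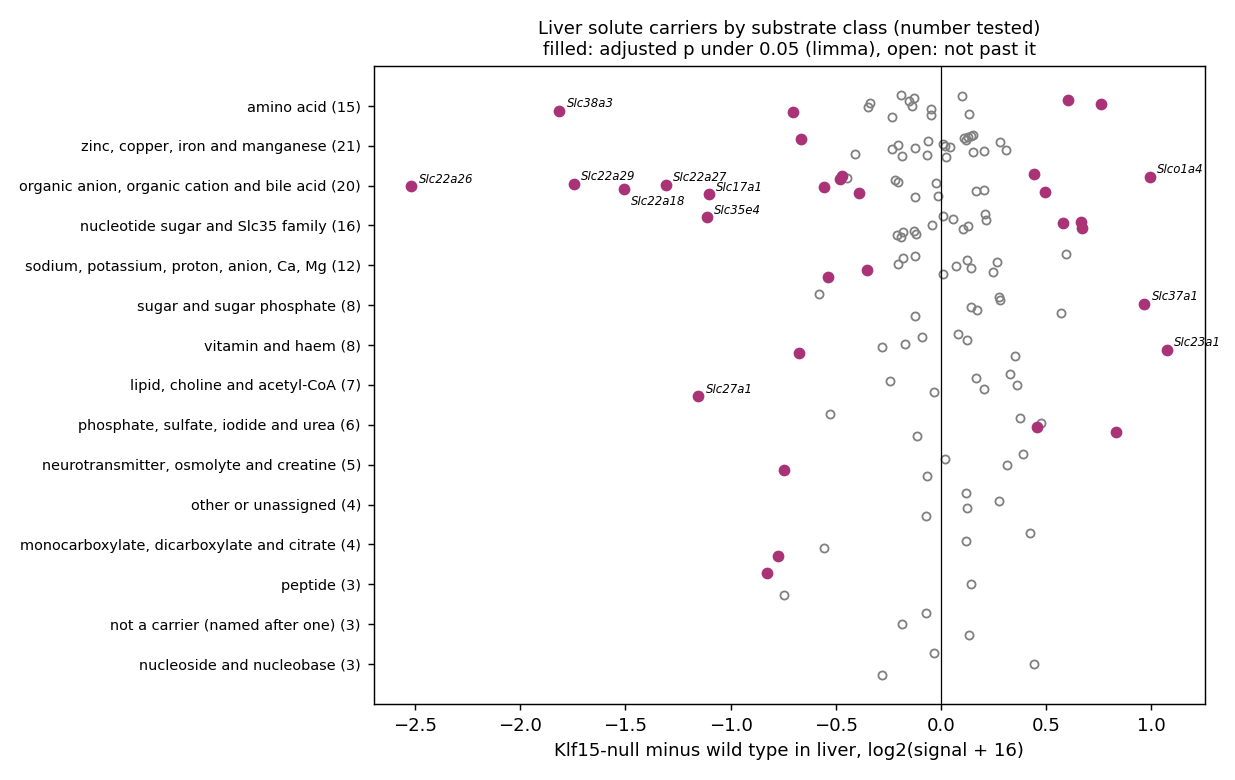
Knockout minus wild-type differences in liver, log2(signal + 16), of the 135 members tested, 1 point a gene, by substrate class with the number tested. Filled points passed an adjusted p of 0.05, and names mark those with a difference beyond 0.9. The organic anion, organic cation and bile acid class holds 12 of the 32 filled points.

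Among the carriers of fatty acids, carboxylates, osmolytes and peptides, 1 gene in each class fell and none rose. Slc27a1 (chromosome 8), which takes up long-chain fatty acids, had 70.5, 77.1, 110 and 89.8 in wild-type and 37.6, 28.5, 30.5 and 23.4 in knockout liver. Every knockout array was below every wild-type array (-1.15 ± 0.16, adjusted p = 0.000512). The fatty acid carrier Slc27a2, with a high signal, had means of 7300 ± 296 and 7124 ± 162 and a difference of -0.03 with an interval from -0.15 to 0.08. Slc13a3, the dicarboxylate carrier, fell from 194 ± 24.0 to 106 ± 11.4 (-0.77), Slc6a12, the betaine and GABA carrier, from 202 to 290 in wild-type to between 117 and 150 in knockout arrays (-0.75), and Slc15a4, a lysosomal carrier of histidine and peptides, from 147 ± 23.9 to 75.7 ± 8.31 (-0.83). Their adjusted p-values were between 0.0012 and 0.00231. With its 4 probe sets averaged Slc13a3 had a difference of -0.31 and did not pass (adjusted p = 0.237). For the lactate and pyruvate carriers the differences were -0.56 for Slc16a1 (adjusted p = 0.141) and 0.42 for Slc16a7 (adjusted p = 0.0908), and the taurine carrier Slc6a6 had one of 0.02.

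Carriers of phosphate, vitamins, sugars, ions and metals moved in both directions. The phosphate carriers Slc20a1 and Slc20a2 rose: Slc20a1 (chromosome 2) had 164, 241, 206 and 165 in wild-type and 417, 363, 373 and 276 in knockout liver, with no overlap (0.83 ± 0.15, adjusted p = 0.00321). Slc20a2 went from 306 ± 46.4 to 424 ± 31.0 (0.46, adjusted p = 0.0238), but its other probe set gave -0.11, and with probe sets averaged it did not pass. Its call was also lost without wild-type liver 1, 2 or 4 or knockout liver 5 or 7, at adjusted p-values up to 0.0766. Slc23a1, the sodium-coupled ascorbate carrier, had 167, 223, 195 and 213 in wild-type and 408, 408, 451 and 481 in knockout liver, and the knockout arrays were all higher (1.08 ± 0.11, adjusted p = 5.16e-05). Slc19a2, the thiamine carrier, fell from 726 ± 98.1 to 448 ± 44.1 (-0.67, adjusted p = 0.00222).

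Slc37a1, a sugar phosphate exchanger of the endoplasmic reticulum, had 52.7, 25.4, 20.1 and 53.7 in wild-type and 73.5, 50.5, 129.7 and 105 in knockout liver. The groups overlapped (0.97 ± 0.27, adjusted p = 0.0384), and the call was lost without wild-type liver 2 or 3 or knockout liver 5, 7 or 8, where the adjusted p reached 0.105. The glucose carrier Slc2a1 had a difference of -0.13 (adjusted p = 0.581). The chloride-coupled ion carriers Slc12a2 (-0.53, adjusted p = 0.0347) and Slc12a7 (-0.35, adjusted p = 0.0277) were called lower. Slc12a2 lost the call without wild-type liver 1, 2 or 3 or knockout liver 5, 6 or 8, with adjusted p-values up to 0.103. Slc12a7 lost it without wild-type liver 2 or 3 or knockout liver 5, 6 or 8, with adjusted p-values up to 0.0841. One further probe set of Slc12a2 had a difference of -0.16 and another 0.16. The zinc carrier Slc39a4 fell from 289 ± 41.9 to 177 ± 34.1 (-0.67, adjusted p = 0.0121), the only one of the 21 metal carriers called.

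In the nucleotide sugar and Slc35 family, which supplies donors to glycosylation and sulfation in the Golgi, 16 of 18 were tested, 3 were called higher and 1 lower. Slc35b2, which carries the sulfate donor PAPS, rose from 113 ± 18.2 to 189 ± 37.2 (0.67), the GDP-fucose carrier Slc35c1 from 43.9 ± 8.62 to 73.5 ± 10.9 (0.58) and the related Slc35c2 from 62.4 ± 15.6 to 107 ± 12.9 (0.66). Their adjusted p-values were 0.0149, 0.0285 and 0.022. Slc35c1 lost the call without wild-type liver 1 or 3 or knockout liver 5, 6 or 8 (adjusted p up to 0.0912), and Slc35c2 without knockout liver 5, 7 or 8 (up to 0.0606). Slc35e4, whose substrate is not settled, fell from 51.0 ± 16.7 to 15.6 ± 11.2 (-1.11, adjusted p = 0.0126). Its knockout mean was below the filter of 25.1. Slc35e4 was thus tested only through its wild-type signals, and its direction was bound to be lower. Its other probe set gave 0.28 at a signal below the filter.

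Other members with high signals in their class did not pass in liver. The bicarbonate carrier Slc4a4 had means of 947 and 835 (-0.18), the zinc carrier Slc39a14 means of 823 and 783 (-0.06) and the copper carrier Slc31a1 means of 480 and 495 (0.04). The UDP-sugar carrier Slc35d1 (0.21), Slc35b1 (0.10), Slc35f5 (0.01), the urate carrier Slc2a9 (0.14), Slc2a8 (0.17), the folate carrier Slc46a1 (-0.17) and the haem carrier Slc48a1 (0.13) were as close to 0. The nucleoside and nucleobase carriers Slc29a1 (-0.28) and Slc43a3 (-0.03), the ascorbate carrier Slc23a2 (-0.28) and the choline carrier Slc44a1 (-0.24) did not pass either. Their adjusted p-values were 0.216 or more. Slc15a2, a peptide carrier, had the widest gap among them, -0.74, but its knockout arrays spread from 6.40 to 51.0 (adjusted p = 0.166).

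Of the 32 members called in liver, 30 had groups that did not overlap. Over all genes 15.9% had such groups, 8.44% higher and 7.49% lower, and 37 of the 135 members did, 15 higher and 22 lower. Among the 13 called members with a further probe set above the filter, 11 had all such probe sets in the same direction, and Slc12a2 and Slc20a2 did not. With the probe sets of a gene averaged, Slc12a2 (-0.18, adjusted p = 0.401), Slc17a2, Slc20a2, Slc35c2, Slco2a1, Slc13a3 and Slco1b2 did not pass. Slc35e4 was then below the filter and was not tested. In every fit that left out 1 array, 22 of the 32 stayed past the threshold. The other 10 were Slc38a2, Slco1a4, Slco2a1, Slc17a2, Slc12a2, Slc12a7, Slc20a2, Slc35c1, Slc35c2 and Slc37a1.

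In quadriceps 2 of the 116 members tested were called, both lower, when 0.976% of all genes were called lower and 0.0501% higher. Slco5a1 (chromosome 1), an organic anion carrier family member without a settled substrate, had 206, 248, 192 and 167 in wild-type and 74.3, 64.4, 60.9 and 134 in knockout quadriceps. Knockout 8 was the highest of the knockout arrays and still below every wild-type array, with a difference of -1.18 ± 0.21 (adjusted p = 0.00777). Slc9a3r1, an adaptor protein that binds sodium-proton exchangers and other membrane proteins, had 53.8, 39.3, 58.8 and 56.0 in wild-type and 4.34, 16.4, 22.1 and 12.9 in knockout quadriceps (-1.21 ± 0.24, adjusted p = 0.0182). The knockout mean of 13.9 was below the filter of 24.1. Slc9a3r1 was thus tested only through its wild-type signals, and its direction was bound to be lower. Its groups were apart, but its other probe sets gave -0.50 and -0.08. The call was lost without wild-type quadriceps 1, 3 or 4, at adjusted p-values of 0.085, 0.102 and 0.0765.

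The median difference in quadriceps was -0.13 over the 116 members and -0.18 over all genes, and that over all genes was -0.06 with quantile normalization and -0.48 on unscaled signals. Groups did not overlap in 8 of the 116, all lower, when 7.51% of all genes had such groups lower, 0.751% higher and 8.26% in all. None of the 18 amino acid carriers tested was called, when 1.03% of all genes were. The glycine carrier Slc6a9 (chromosome 4) had 169, 137, 133 and 138 in wild-type and 28.7, 94.4, 93.6 and 63.3 in knockout quadriceps. Its groups did not overlap (-0.98 ± 0.24, adjusted p = 0.0655), but its other probe set, with means of 45.2 and 47.6, gave 0.06. The glutamine carrier Slc1a5 went from 106 ± 6.67 to 74.4 ± 19.2 (-0.46, adjusted p = 0.242). Slc38a3 had 321, 349, 419.9 and 388 in wild-type and 232, 311, 193 and 401 in knockout quadriceps, where knockout 8 was within the wild-type range (-0.40 ± 0.22, adjusted p = 0.357). The most positive difference among the 18 was that of Slc66a1, 0.59 (adjusted p = 0.366). Its means were 16.1 in wild-type and 34.5 in knockout quadriceps. It passed the filter of 24.1 only through its knockout arrays, so its direction was bound to be positive. Slc7a6, Slc7a2, Slc38a4 and Slc6a17 had differences between 0.38 and 0.45, Slc6a18 one of 0.23 and Slc7a10 one of 0.02, and none of these 7 passed. Slc6a18, with means of 22.5 and 30.7, also passed the filter only through its knockout arrays. Further probe sets gave 0.90 and 1.30 for Slc7a2, 0.47 for Slc7a6 and 0.18 for Slc38a4. Slc38a2, with means of 1026 ± 78.6 and 1028 ± 413, spread from 677 to 1609 among the knockout arrays. The 95% interval of its difference ran from -0.64 to 0.49. The liver difference of -0.70 was not shown to differ from that in quadriceps (limma on all 16 arrays, -0.63, adjusted p = 0.300).

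Knockout quadriceps 8 decided most calls in muscle. Without it 25 of 117 members tested were called, 2 higher and 23 lower, when 22.6% of all genes were called, 1.48% higher and 21.1% lower. The 2 that were higher were the taurine carrier Slc6a6 and the sodium-calcium exchanger Slc8a3, at 1.15 and 1.03. Among the lower ones were the choline-like carrier Slc44a2 (-1.46), Slco5a1 (-1.40), the creatine carrier Slc6a8 (-0.98) and 3 amino acid carriers, Slc6a9 (-0.97), Slc38a10 (-0.76) and Slc38a3 (-0.58), with adjusted p-values of 0.0203, 0.00731 and 0.0329. With all 8 arrays, further probe sets gave -0.37 and 0.82 for Slc44a2, -0.13 for Slc6a8 and 0.06 for Slc6a9. Those of Slc38a10 ran from -0.20 to 0.65. Slc44a2 had 962, 1012, 901 and 860.4 in wild-type and 246, 336, 429 and 1017 in knockout quadriceps, with knockout 8 the highest of all 8. Slc6a8 had 913, 917, 1138 and 693 in wild-type and 458, 501, 391 and 1124, again with knockout 8 among the wild-type arrays. Slc6a6 had 78.3, 115, 80.3 and 61.6 in wild-type and 222, 214, 171 and 67.2, where the other 3 knockout arrays were above every wild-type array and knockout 8 was not. These calls also depend on the scaling: with quantile normalization and without knockout 8, 10 of 116 were called, 5 higher and 5 lower, when 8.19% of all genes were, 2.94% higher and 5.25% lower. Slco5a1, Slc9a3r1, Slc44a2, Slc26a2, Slc10a6, Slc6a6 and Slc8a3 were called in both of these settings, and Slc38a4 (0.89) was the 1 amino acid carrier called in the second. Of the adipocyte markers 0 of 5 passed with all 8 arrays, and all 5 had a negative difference, with a summed signal of 4508 to 6795 in wild-type and 2958 to 7826 in knockout quadriceps. The part of these cells and of RNA quality in the calls was not tested.

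**Figure D4:**
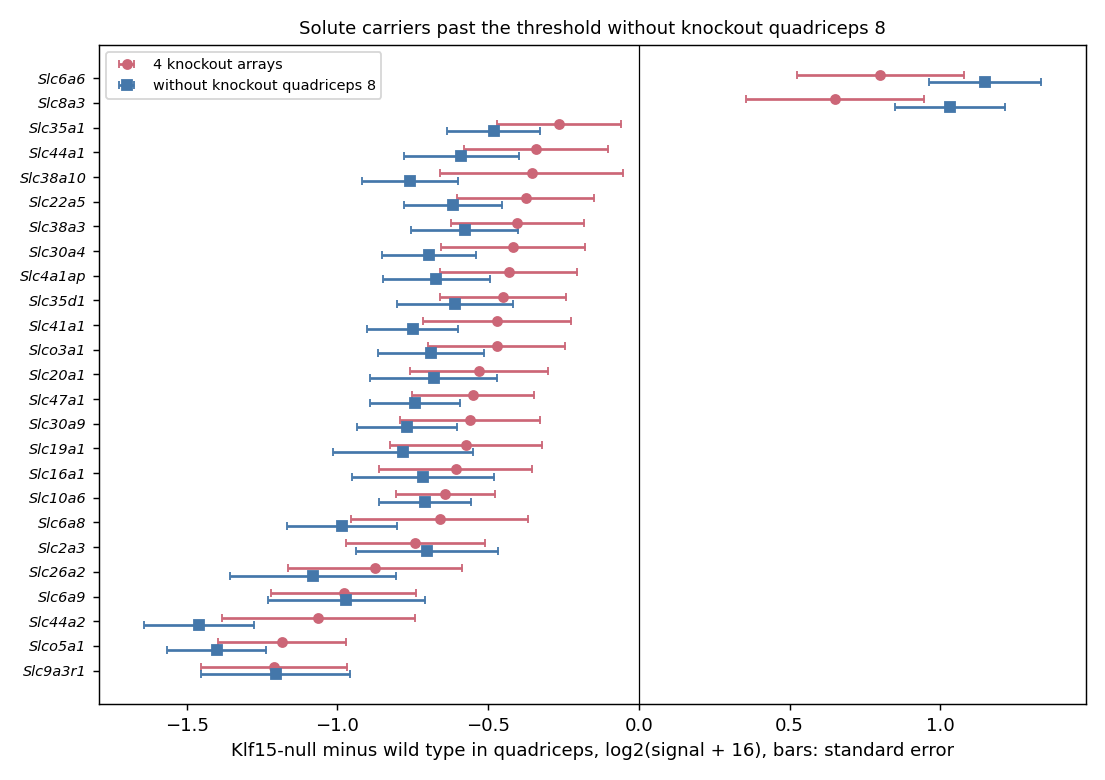
Knockout minus wild-type differences in quadriceps, log2(signal + 16), with standard errors, for the 25 members that passed without knockout quadriceps 8. Circles show the fit of all 8 arrays and squares the fit without that array. Slc6a6 and Slc8a3 are to the right of 0, and the other 23 to the left.

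Whether the knockout difference itself differed between the tissues was tested over all 16 arrays. Of 152 members tested, 9 were called, 3 with a more positive and 6 with a more negative difference in liver, when 1.95% of all genes were called, 1.17% more positive and 0.779% more negative. Slc38a3 differed by -1.41 ± 0.26 (adjusted p = 0.00555), the 1 amino acid carrier among the 9. The phosphate carrier Slc20a1, higher without Klf15 in liver, had 271, 292, 273 and 276 in wild-type and 102, 209, 216 and 261 in knockout quadriceps, a difference of -0.53 that did not pass there (adjusted p = 0.273). The difference between tissues was 1.36 ± 0.29 (adjusted p = 0.0148). For 5 others quadriceps signals were below the filter: Slc22a26 (-2.76), Slc22a29 (-1.94), Slc22a18 (-1.63), Slc22a27 (-1.53) and Slc6a12 (-1.32). Differences among those low quadriceps signals enter these values, from 0.12 for Slc22a18 to 0.57 for Slc6a12, whose means there were 2.65 and 12.5. Slco5a1 (1.27) was in turn below the filter in liver, and Slc9a3r1 (1.03) had a high signal in liver, where it went from 1568 ± 86.5 to 1378 ± 50.5. The call for Slc9a3r1 was lost with a pseudocount of 64 (0.40, adjusted p = 0.147) and with probe sets averaged (0.35, adjusted p = 0.404). The call for Slc22a27 was lost without any 1 of 11 arrays (wild-type liver 1 and 2, the 4 knockout liver arrays, the 4 wild-type quadriceps arrays and knockout quadriceps 6), with adjusted p-values up to 0.0817. That for Slco5a1 was lost without knockout liver 5 (0.0536) or wild-type quadriceps 2 (0.063). Slc38a2 (-0.63, adjusted p = 0.300), Slc7a2 (0.22, adjusted p = 0.838) and Slc66a1 (0.17, adjusted p = 0.843) were not shown to differ between tissues. Without knockout quadriceps 8, 32 of the members were called, 20 more positive and 12 more negative, when 18.6% of all genes were, 16.2% more positive and 2.43% more negative. With quantile normalization and without that array 28 were called, 13 and 15, when 10.3% of all genes were, 6.62% and 3.65%. Slc38a3 was called in both settings, at -1.24 and -1.61.

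Wild-type liver and quadriceps differed in most carriers, as they did in most genes. Of 152 members tested 122 were called, 88 higher in liver and 34 higher in quadriceps, or 80.3%, when 75.5% of all genes were called, 36.2% higher in liver and 39.4% higher in quadriceps. The median difference, liver minus quadriceps, was 0.54 over the members and -0.06 over all genes. Under the other scalings 113 to 117 were called, and 67.3% to 67.8% of them were higher in liver against 72.1% here. A member that was dim in 1 tissue passed the filter only through the other tissue, so that its difference was bound to be large. By the filters of the knockout comparisons, 36 members passed in liver alone and 17 in quadriceps alone. The counts and the median above include such members and were not split by this. Tissue and run day cannot be told apart in any of these values.

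Among the amino acid carriers 10 of 20 were higher in liver and 4 in quadriceps. Slc38a4 had a mean of 3863 ± 212 in wild-type liver and 170 ± 33.6 in wild-type quadriceps (4.40 ± 0.12), and Slc38a3 3183 ± 265 and 369 ± 43.4 (3.06 ± 0.11). The glutamate carrier Slc1a2 was near 0 in quadriceps, between 1.54 and 4.37, and 122 to 227 in liver. Slc7a6, a carrier of cationic and neutral amino acids, had a mean of 132 in quadriceps, and Slc1a1, Slc1a5 and Slc7a10 had means of 82.3, 106 and 28.2 there. These 4 were higher in quadriceps and below the filter in liver, with means of at most 21.5. Slc38a2 differed by 0.15 ± 0.12 (adjusted p = 0.237) and the heavy chain Slc3a2 by 0.16 (adjusted p = 0.252), so neither was shown to differ.

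Among the 10 called members with the largest differences towards liver, Slc9a3r1 had a signal above the filter in both tissues, with means of 1568 in liver and 52.0 in quadriceps (4.55). The other 9 were below the filter in quadriceps, where a difference and its rank depend on the pseudocount, so their levels are given. The fatty acid carrier Slc27a2 had a mean of 7300 in liver and 6.23 in quadriceps, and the bile acid and drug carrier Slco1b2 4565 and 12.1. Slc17a2 had means of 1123 and 2.14, the pyruvate and lactate carrier Slc16a7 741 and 4.93, and Slco1a4 687 and 11.9. For Slc6a13, Slc22a30, Slc22a26 and Slc26a1 the liver means were between 404 and 672 and the quadriceps means between 2.12 and 8.02.

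Among the 10 with the largest differences towards quadriceps, 5 were above the filter in both tissues. These were the creatine carrier Slc6a8 (-3.85), Slc44a2 (-3.79), the chloride carrier Slc12a2 (-2.85) and the magnesium carriers Slc41a1 (-2.72) and Slc41a3 (-2.30). The other 5 were below the filter in liver. The lactate exporter Slc16a3 had 514, 488, 651 and 471 in quadriceps against 11.7, 6.90, 3.70 and 14.2 in liver, Slco5a1 had means of 203 and 2.50, and Slco3a1 of 283 and 12.3. Slc6a13, a GABA carrier, and Slc26a1, a sulfate carrier, were close to 0 in quadriceps. Slc16a1 (0.51, adjusted p = 0.0582) and Slc2a1 (0.09, adjusted p = 0.547), both at a clear signal in each tissue, were not called.

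**Figure D5:**
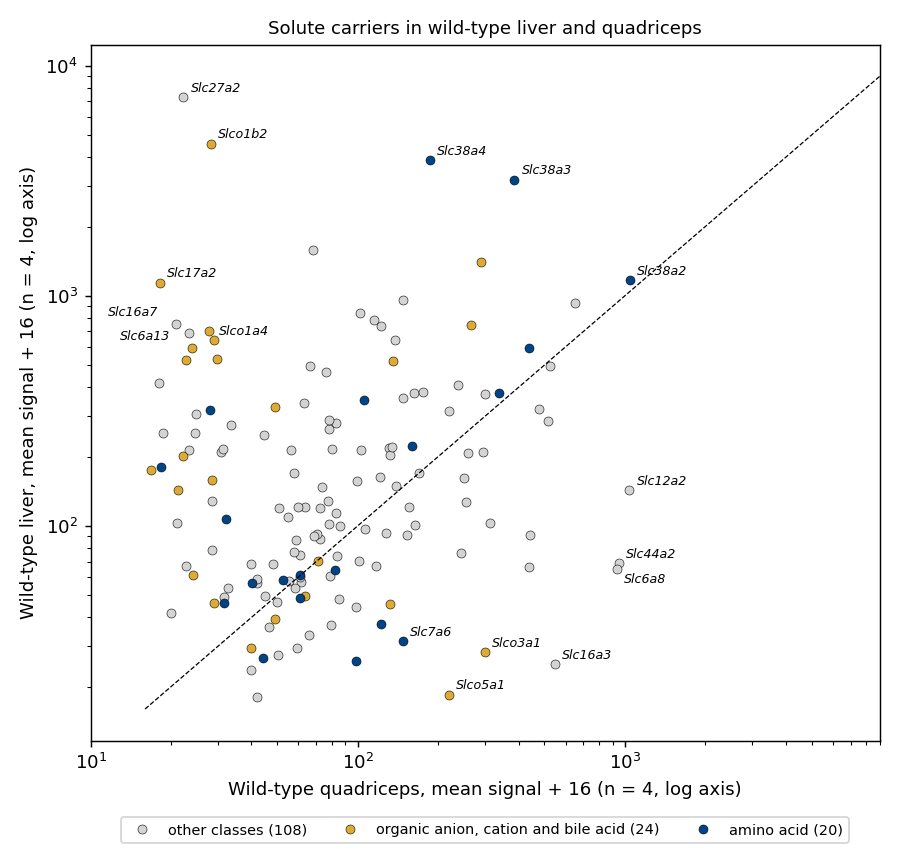
Mean signal + 16 of 152 members in wild-type liver against wild-type quadriceps, 4 arrays each, on log axes. Each point is a gene, coloured by class, and the dashed line marks equal signal. Slc27a2, Slco1b2 and Slc38a4 lie far on the liver side and Slc16a3, Slc6a8, Slc44a2 and Slco5a1 on the quadriceps side.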

How the data were processed

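Liver and quadriceps RNA was hybridised to Affymetrix Mouse430A_2 arrays, per the file headers, 1 sample an array. The authors deposited 1 linear intensity for each of 22690 probe sets, made with GCOS per the submitters' processing notes. The sources used here do not give its version, summary method or scaling, and no detection calls were used. Run records, deposited by the authors as other text, were used only for fluidics station, module and scan day.

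Probe sets were named from the platform annotation of GEO: 20380 had 1 symbol, 691 several and 1555 none, beside 64 controls. Chromosomes and gene order come from RefSeq (GRCm38.p6), which held all 234 members. Quadriceps arrays were multiplied to the median of their medians, since these differed by more than 1.5 times, and liver arrays were kept as deposited. limma 3.58.1 in R 4.3.3 fitted log2(signal + 16) with a variance trend, per tissue for the knockout comparisons and over 16 arrays for the difference between tissues. Genes below the 40th percentile of probe set means were left out, and p-values were Benjamini-Hochberg adjusted over all genes tested (threshold 0.05). The fits were tested on simulated data. Figures were drawn with matplotlib 3.10.9.

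The rule for named genes took every member called in a tissue or in the difference between tissues, every amino acid carrier tested, the 2 members of each class with the highest wild-type mean in each tissue, the 10 largest called differences each way between wild-type tissues, the called genes of the sensing and partner lists, and Klf15. Slc8a3, Slc26a2, Slc10a6, Slc7a1, Slc7a5, Slc7a11 and the markers Marco, Kdr and Fabp2 were chosen after their values were seen. Members, classes and lists were chosen with earlier results of these data known. Alternatives tried were the pseudocount, the filter, the scaling, the variance trend, averaged probe sets, module, scan day and replicate blocks, 1 fit for all arrays, and leaving out each array. Quantile normalization without knockout quadriceps 8 was added after the data were seen.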

Additional observations from a re-analysis of the deposited data

Results flagged for a closer look

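In 104 groups of 4 arrays, for members called in liver or quadriceps or in the difference between tissues, 3 held 1 array far from the other 3, and chance gives about 1 in 20 such groups. Wild-type liver 3 had a Slc17a3 signal of 757.5 against 570.5 to 589 on the others. Knockout liver 6 had a Slc22a18 signal of 155.1 against 173 to 174. Wild-type liver 1 had a Slc35c2 signal of 39.0 against 69.0 to 71.5.

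The knockout difference in liver minus that in quadriceps passed the threshold in 9 members. It was negative for Slc22a26 (-2.756), Slc22a29 (-1.937), Slc22a18 (-1.633), Slc22a27 (-1.528), Slc38a3 (-1.41) and Slc6a12 (-1.32), and positive for Slc20a1 (1.364), Slco5a1 (1.273) and Slc9a3r1 (1.028). Slc38a3, Slc20a1 and Slc9a3r1 were measured above the filter in both tissues, and the other 6 in 1 tissue. In quadriceps Slc9a3r1 passed the filter only through its wild-type arrays.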

How the results depend on the processing

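The number of members called in liver (32) was 25 to 34 under the pseudocounts of 1 and 64, no filter, the 60th percentile filter, quantile normalization, a common median for all 16 arrays, no variance trend, averaged probe sets and the fluidics module as a block, and 25 to 32 when each array was left out. In 1 fit of all 16 arrays it was 13, and 13 also with the replicate block. Of the 32, 13 passed in every setting in which they were tested, and 2, Slc12a2 and Slco2a1, passed in 8 of 19. Among those 13, Slc27a1 was tested in 18 settings and Slc35e4 in 17, and in the rest they were below the filter. In quadriceps (2) the count was 1 with a pseudocount of 1 and with the 60th percentile filter, 4 with no scaling and with the fluidics module as a block, 6 in 1 fit of all 16 arrays with or without the replicate block, 25 with the scan day as a block, which sets knockout 8 aside, and 10 with quantile normalization without knockout 8. Leaving out each array gave 1 to 25, the latter without knockout 8. For the difference between tissues (9) the count was 5 with a pseudocount of 1, 32 with the scan day as a block and 28 with quantile normalization without knockout 8, and 7 to 32 when each array was left out, the latter without knockout 8. It was 8 with the replicate block. For wild-type liver against quadriceps (122) every setting gave 99 to 131, with 118 under the replicate block and 114 to 122 when each array was left out. No member named changed direction past the threshold. The labels do not say whether samples of 1 number share an animal, so the numbers were not used as pairs. Deviations of same-numbered arrays in the tissues correlated between -0.10 and 0.05 over 6989 genes, and 2 of 8 arrays correlated best with their own number. A scan day block could not be fitted for liver, which had 1 day, or between tissues. Leaving the signals unscaled is the liver setting already used. The causes of these changes were not tested. Signal over background limits the dim members, for which no detection call is used here.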
